A study of Mus musculus with 3 samples.

Results

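The DNA methyltransferases and the proteins that read methylated CpG were followed through 9 genes: Dnmt1, Dnmt3a and Dnmt3b, the methyl-CpG-binding domain genes Mbd1, Mbd2, Mbd3 and Mbd4, and Uhrf1 and Uhrf2. They were taken by row name from a table of 34617 gene rows, and all 9 were found. The data are 2 RNA libraries of sorted cells from the main olfactory epithelium of mice aged 4 weeks. The mOSN library is from C57BL/6J mice and from cells positive for EGFP made from the OMP-ires-EGFP allele, which puts the reporter under the olfactory marker protein gene of mature olfactory sensory neurons. The O/Tet3 library is from mice of strain Fvb that carry OMP-tTA and tetO-Tet3-GFP, so that the transactivator made from the Omp driver switches on Tet3, an enzyme that oxidises 5-methylcytosine; the labels do not state how the O/Tet3 cells were gated. The series also has DNA of O/Tet3 mice enriched for 5-hydroxymethylcytosine, which was not analysed here. Each group has 1 library, so no difference below has a replicate check or a p-value, and strain, genotype, driver allele and library cannot be told apart.

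DNA methylation at CpG is written by enzymes of separate kinds. Dnmt3a and Dnmt3b place new methyl groups, and Dnmt1 copies the mark onto the new strand after replication, where Uhrf1 recognises the half-methylated site and brings Dnmt1 to it. Mbd1 and Mbd2 bind methylated CpG and bring repressor complexes, Mbd3 is a relative of Mbd2 in the NuRD deacetylase complex that in mammals binds methylated DNA poorly, and Mbd4 is a glycosylase that removes the thymine left when 5-methylcytosine is deaminated. Uhrf2 resembles Uhrf1 and has been described as a reader of 5-hydroxymethylcytosine, the product of Tet enzymes. In postmitotic neurons Dnmt3a is known as the main enzyme for new methylation.

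A value below is the linear number behind the deposited log2(value + 1); its unit is not named in the file, and its digits look like the FPKM that Cuffdiff prints, a count of fragments scaled by transcript length and library size. A row entered the comparison when the higher of its 2 values reached the floor of 1, which 12943 rows did. The log2 ratio sets O/Tet3 over mOSN after adding 1 to both values, so it is compressed for low genes, and a ratio of 1 or more in either direction (2-fold in value + 1) is a call. The 9934 rows that reached 1 in each library had a median log2 ratio of 0.21, so a ratio near 0.21 is where the middle of these rows lies. Odorant receptor genes, which have coding parts of similar length, show the step of a single read, about 0.0270 for mOSN and 0.0503 for O/Tet3. The Tet3 row, which can take in transgene reads, stood at 3.72 in mOSN against 145 in the O/Tet3 library. Omp was at 298 and 139, and all 9 mature neuron markers were called lower (median log2 ratio −2.10), beside 12.0% of all compared rows.

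**Figure D1:**
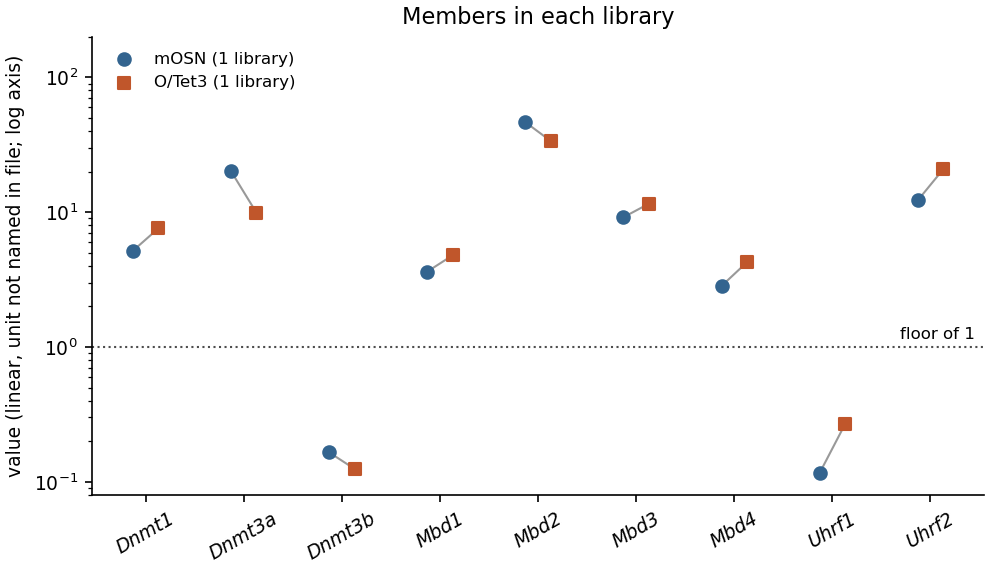
Value of each of the 9 genes in the mOSN library (circles) and the O/Tet3 library (squares) on a log axis, 1 library each, with the floor of 1 as a dotted line. Mbd2 is highest in both libraries, at 46.5 and 33.7, and Dnmt3b and Uhrf1 lie under the floor in both.

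Of the 9 genes, 7 passed the floor, each with a value above 1 in both libraries, and 0 of these 7 were called in either direction. Among all compared rows, 16.5% were called higher and 12.0% lower, or 2135 and 1552 rows. Of the 9934 rows that reached 1 in each library, as these 7 did, 13.1% were called higher and 6.50% lower. After the shift of 0.21 was subtracted, the balance over all compared rows turned, with 1464 higher and 1953 lower. The log2 ratios of the 7 genes ran from −0.96 for Dnmt3a to 0.72 for Uhrf2, with a median of 0.33 beside 0.21 over all compared rows; 5 were above 0 and 2, Dnmt3a and Mbd2, below. At the smaller fold of 1.5, which takes 32.3% of all compared rows as higher and 19.6% as lower, Uhrf2 was higher and Dnmt3a lower; after the shift was subtracted Dnmt3a and Mbd2 were past that smaller limit and Uhrf2, at 0.52, was not. The summed value of the 9 genes, with no adjustment for the shift, was 99.9 in mOSN and 92.9 in O/Tet3. The make-up of that sum differed: Dnmt3a went from 20.2% to 10.6% of it, Mbd2 from 46.5% to 36.2%, and Uhrf2 from 12.2% to 22.4%.

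**Figure D2:**
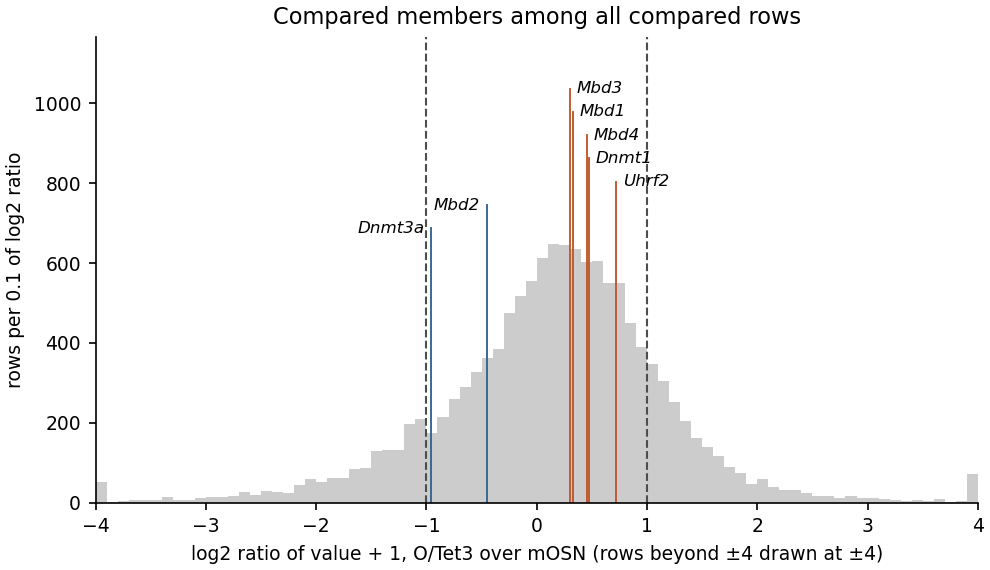
Log2 ratios of the 7 compared genes as vertical lines over the distribution of all 12943 compared rows, with the dashed lines at the call limits of −1 and 1. Dnmt3a lies just inside the lower limit at −0.96, Mbd2 is at −0.46, and the other 5 lie between 0.30 and 0.72.

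Dnmt3a, the writer of new methylation in neurons, was the gene of the set closest to a call. Its value of 20.1 in mOSN stood against 9.89 in the O/Tet3 library, which is 2.04-fold lower in the values themselves and a log2 ratio of −0.96 on the scale of value + 1. The call rests on the choice of scale: the log2 ratio was −1.02 with a pseudocount of 0.1, −1.03 with none and −1.16 after the shift of 0.21 was subtracted, each past the limit. In mOSN Dnmt3a ranked 1502 among the 11350 rows that reached 1, and in O/Tet3 3832 among 11527. Of all compared rows, 12.6% had a lower ratio. Dnmt3a was at 0.0676 of the Omp value in mOSN and 0.0711 in O/Tet3, but Omp had the smallest difference of the 9 mature neuron markers. Against the other 8 the Dnmt3a share was 1.51-fold (Cnga4) to 4.69-fold (Gng13) higher in O/Tet3, and against the sum of the 9 it was 0.00649 and 0.0142, 2.19-fold higher. In libraries made from many cells, fewer cells of a type and less RNA per cell cannot be told apart, and the part of neuron maturity in the Dnmt3a value was not tested.

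Dnmt3b, the other de novo enzyme, best known from early embryos, was near the value of single reads, at 0.165 in mOSN and 0.125 in O/Tet3. These values equal about 6.13 and 2.48 single reads of a receptor gene. They stand for more reads, by a factor not known here, if the transcript is longer and the values are FPKM. Dnmt3l, the partner of the de novo enzymes that has no catalytic activity, was listed at 0 in both libraries. Dnmt3a stood above Dnmt3b 122-fold in mOSN and 79.5-fold in O/Tet3, ratios that rest on those few reads.

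Dnmt1, the maintenance enzyme, was present in both libraries, at 5.16 in mOSN and at 7.58, or 1.47-fold higher, in O/Tet3 (log2 ratio 0.48, or 0.27 after the shift was subtracted). Its rank was 5564 in mOSN and 4763 in O/Tet3. Within a library the value of Dnmt3a was 3.90 times that of Dnmt1 in mOSN and 1.31 times in O/Tet3. This 2.99-fold difference of the pair is free of any scaling of a whole library. Uhrf1, which recruits Dnmt1 to replicated DNA, was at 0.116 and 0.268, equal to about 4.31 and 5.33 receptor reads. The Uhrf1 reads are more if its transcript is longer and the values are FPKM. At values this low the Uhrf1 ratio is not read here.

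The start regions of these genes are shown for their CpG content, and whether the CpG there is methylated was not measured here. RefSeq (build GRCm38.p6, while the submitters' notes name mm9) gives 12 start windows for 7 of the 9 genes. Mbd1 and Mbd2 have no window here. The 250 bases before each start are used. A window of this length held a median of 6 CpG over 32851 windows of all genes. Of the 12 windows 11 held more, with a range of 2 to 40. Windows of the same gene are counted separately. Dnmt3a has starts 84.8 kb apart, and the single Dnmt3a row cannot say which was used. The most upstream window, at chr12:3806730-3806979 (plus strand), holds 38 CpG and the downstream one, at chr12:3891494-3891743 (plus strand), 15. Another Dnmt3a window, at chr12:3806910-3807159, overlaps the most upstream one, holds 40 CpG and is not printed. The Dnmt1 window with the most CpG, at chr9:20952624-20952873 (minus strand), holds 26. The Uhrf1 window with the most CpG, at chr17:56304063-56304312 (plus strand), holds 30. The other Uhrf1 window, at chr17:56303087-56303336, holds 10 and is not printed. The Uhrf2 window at chr19:30030263-30030512 (plus strand) holds 23. Each printed window is written from 5′ to 3′ on the strand of the gene, with CpG in capitals.
Dnmt3a upstream: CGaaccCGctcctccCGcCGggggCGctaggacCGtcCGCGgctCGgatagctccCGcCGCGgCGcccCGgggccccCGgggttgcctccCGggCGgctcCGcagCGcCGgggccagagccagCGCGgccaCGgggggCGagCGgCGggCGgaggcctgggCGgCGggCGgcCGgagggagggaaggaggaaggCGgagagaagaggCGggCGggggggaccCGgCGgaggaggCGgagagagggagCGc
Dnmt3a downstream: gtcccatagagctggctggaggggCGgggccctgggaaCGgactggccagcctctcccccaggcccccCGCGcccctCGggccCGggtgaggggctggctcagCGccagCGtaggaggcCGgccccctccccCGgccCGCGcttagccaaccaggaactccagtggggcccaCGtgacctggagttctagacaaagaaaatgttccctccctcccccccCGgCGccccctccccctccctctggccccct
Dnmt1: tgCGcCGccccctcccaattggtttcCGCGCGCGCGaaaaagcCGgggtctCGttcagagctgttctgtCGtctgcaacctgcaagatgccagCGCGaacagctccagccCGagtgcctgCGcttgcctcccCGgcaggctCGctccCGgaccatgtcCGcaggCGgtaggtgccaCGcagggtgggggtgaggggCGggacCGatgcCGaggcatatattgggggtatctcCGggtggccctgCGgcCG
Uhrf1: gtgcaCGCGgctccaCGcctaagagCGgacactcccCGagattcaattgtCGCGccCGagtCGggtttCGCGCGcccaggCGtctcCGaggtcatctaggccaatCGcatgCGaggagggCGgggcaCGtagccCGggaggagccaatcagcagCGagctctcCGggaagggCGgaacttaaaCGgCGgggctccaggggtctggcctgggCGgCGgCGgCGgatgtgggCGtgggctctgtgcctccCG
Uhrf2: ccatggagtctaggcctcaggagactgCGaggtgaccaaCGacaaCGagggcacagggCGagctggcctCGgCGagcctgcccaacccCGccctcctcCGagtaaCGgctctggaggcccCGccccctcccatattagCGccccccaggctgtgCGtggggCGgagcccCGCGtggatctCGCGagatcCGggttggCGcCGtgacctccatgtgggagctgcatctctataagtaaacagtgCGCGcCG

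The windows were also searched on both strands for the E2F motif, bound by factors that drive genes of DNA synthesis, in its forms TTTCCCGC, TTTGGCGC, TTTCGCGC and TTTGCCGC, which overlap the CpG counted above. A match was found in 2 of the 12 windows, those of Dnmt1 and Uhrf1 printed here, and in 1.86% of all windows. In Dnmt1 it reads GCGCGAAA on the strand of the gene and begins 219 bases before the start, and in Uhrf1 it reads TTTCGCGC and begins 185 bases before it. A match is a description of the letters only. Dnmt1 and Uhrf1 share it while their values differ widely: in mOSN Dnmt1 was at 5.16 and Uhrf1 at 0.116.

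**Figure D3:**
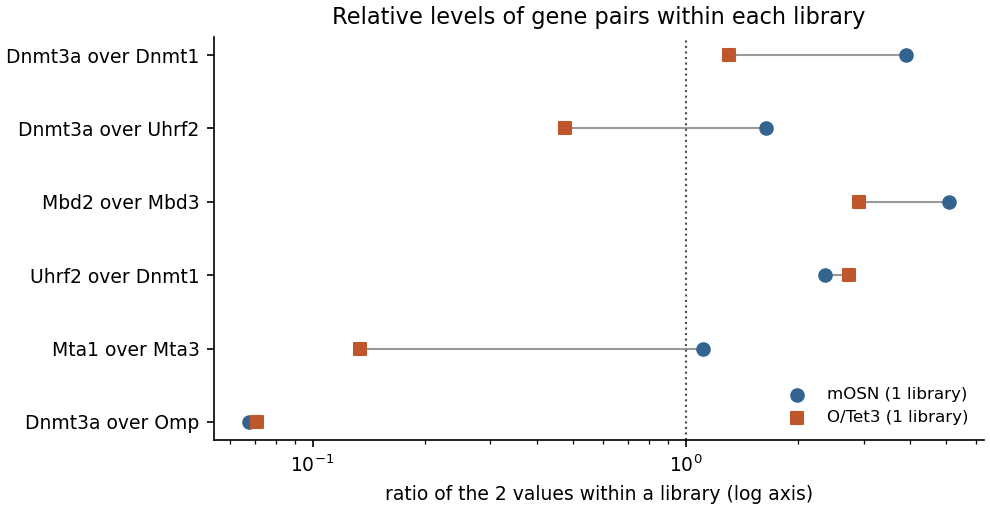
Ratio of the values of 2 genes within the mOSN library (circles) and within the O/Tet3 library (squares), on a log axis, with the dotted line at equal values. Dnmt3a over Uhrf2 goes from 1.65 to 0.476 and crosses equality, while Dnmt3a over Omp, the mature neuron marker with the smallest difference, is at 0.0676 and 0.0711; over each of the other 8 markers, which are not drawn, it was at least 1.51-fold higher in O/Tet3.

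Uhrf2, the relative of Uhrf1, had the highest ratio of the compared genes. It was at 12.2 in mOSN and at 20.8, or 1.70-fold higher, in O/Tet3 (log2 ratio 0.72, or 0.52 after the shift was subtracted), and 26.4% of all compared rows had a higher ratio. Its rank was 2650 in mOSN and 1727 in O/Tet3. Uhrf2 stood above Uhrf1 105-fold in mOSN and 77.6-fold in O/Tet3, folds that rest on the few reads of Uhrf1, though Uhrf2 made up nearly all of the summed Uhrf value in both. Dnmt3a stood above Uhrf2 in mOSN (1.65 times its value) and below it in O/Tet3 (0.476 times).

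Among the methyl-CpG-binding domain genes Mbd1 to Mbd4, Mbd2 was the highest in both libraries. It was at 46.5 in mOSN and at 33.7, or 1.38-fold lower, in O/Tet3 (log2 ratio −0.46, or −0.66 after the shift was subtracted), with rank 460 and rank 938. Mbd3, its relative in NuRD complexes, was at 9.16 and 11.5 (log2 ratio 0.30). Mbd2 was therefore 5.08 times Mbd3 in mOSN and 2.91 times in O/Tet3. Mbd1, which also has zinc fingers that bind CpG, was at 3.62 and 4.79 (log2 ratio 0.33), and the glycosylase Mbd4 at 2.83 and 4.26 (log2 ratio 0.46). After the shift of 0.21 was subtracted, Mbd1 was at 0.12 and Mbd3 at 0.10, close to the middle of the rows that reached 1 in each library. The order of the 9 genes in mOSN was Mbd2, Dnmt3a, Uhrf2, Mbd3, Dnmt1, Mbd1, Mbd4, Dnmt3b and Uhrf1. In O/Tet3 Dnmt3a came after Uhrf2 and Mbd3, and Uhrf1 before Dnmt3b, and the other neighbours kept their order. With 1 library per group there is no spread to set beside this order.

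Other proteins with a methyl-CpG-binding fold gave 0 calls among 6 compared genes (median log2 ratio 0.15, under the 0.21 of all compared rows). Baz2b, a chromatin remodelling subunit, was at 37.9 and 70.9 (log2 ratio 0.89), and the histone methyltransferase Setdb1 at 4.15 and 6.15. Mbd6 was at 2.85 and 1.41, and Setdb2, a relative of Setdb1, at 16.6 and 12.3. The zinc finger readers of methylated DNA also gave 0 calls among 3 compared genes: Zbtb33, which encodes Kaiso, was at 6.53 and 10.9, Zbtb38 at 19.6 and 25.4, and Zbtb4 at 2.97 and 2.44.

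Among Dnmt relatives and partners of maintenance, 2 of 7 compared genes were called higher and 0 lower (median 0.56). Of all compared rows, 16.5% were called higher and 12.0% lower. The DNA ligase Lig1, which joins the fragments of the new strand, was at 1.98 and 8.76, 4.41-fold higher in O/Tet3. The remodeller Hells, needed for methylation of repeats, was at 0.425 and 2.76, 6.50-fold higher, and it passed the floor only through O/Tet3. The lowest ratios were those of Usp7, a deubiquitinase that binds Dnmt1, at 20.8 and 17.2, and of Trdmt1, a tRNA methyltransferase of the same family, at 1.37 and 1.98. Of 18 DNA replication genes 9 were compared, with 2 higher, 0 lower and a summed value over all 18 of 21.0 in mOSN and 35.4 in O/Tet3. The 2 called, the helicase subunit Mcm6 (0.366 and 2.48) and the cyclin Ccne2 (0.399 and 2.84), passed the floor only through O/Tet3. Of the 7 genes of this replication list that reached 1 in each library, 0 were called. Mcm7, the highest of these 7, was at 5.47 and 11.6, a log2 ratio of 0.96 just inside the limit. The 0 of 7 depends on how the lists were drawn. Lig1, listed with the partners of maintenance, also reached 1 in each library and was called higher. Pcna, from the same list as Lig1, was at 18.4 and 33.1 (log2 ratio 0.81) and was not called. Among all rows that reached 1 in each library, 13.1% were called higher and 6.50% lower. None of 9 mitosis genes reached the floor, with Mki67, the standard mark of dividing cells, at 0.144 and 0.0517 and sums of 1.98 and 1.88. The part of dividing or recently divided cells in the values of Dnmt1, Uhrf1, Lig1 and Hells was not tested.

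The subunits of NuRD, the complex that holds Mbd2 or Mbd3, differed in both directions. Of 12 compared subunits, 1 was called higher and 2 lower (median 0.19). Among all compared rows these shares were 16.5% and 12.0%, so counts this small do not set the subunits apart. Mta3 was at 5.35 and 17.1, 3.20-fold higher in O/Tet3, while its paralog Mta1 was at 5.98 and 2.29, 2.60-fold lower. Mta1 over Mta3 was therefore 1.12 in mOSN and 0.134 in O/Tet3. The remodeller Chd3 was at 3.32 and 0.763, 4.35-fold lower, and passed the floor only through mOSN. The deacetylase Hdac2 was at 14.7 and 28.5 (log2 ratio 0.91). Chd4 and Gatad2a were picked out after their values were seen. Chd4, the paralog of Chd3 and the highest subunit in both libraries, was at 50.3 and 53.4, and the scaffold Gatad2a at 14.4 and 6.80, a log2 ratio of −0.98 just inside the limit as for Dnmt3a.

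Of the genes that work with Mbd1 in repression, 1 of 4 compared was called higher: the histone methyltransferase Suv39h1, at 1.25 and 4.97. Atf7ip was at 4.91 and 5.53, the chromatin assembly factor Chaf1a at 2.39 and 2.68, and Cbx5, which encodes HP1 alpha, at 15.7 and 16.6; centring turns the sign of these 3 small ratios. Of the base repair genes set beside Mbd4, 1 of 3 compared was called higher, the endonuclease Apex1 at 2.37 and 6.30. Tdg, the other thymine glycosylase and the enzyme that removes the oxidised products of Tet, was at 9.02 and 5.00 (log2 ratio −0.74), and Smug1 at 0.967 and 2.05. Mbd4 over Tdg was 0.314 in mOSN and 0.850 in O/Tet3. Over all 35 compared genes of the 6 partner lists, 5 (14.3%) were called higher and 2 (5.71%) lower, neither share above the 16.5% and 12.0% of all compared rows, with a median of 0.36 beside 0.21 over all compared rows.

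**Figure D4:**
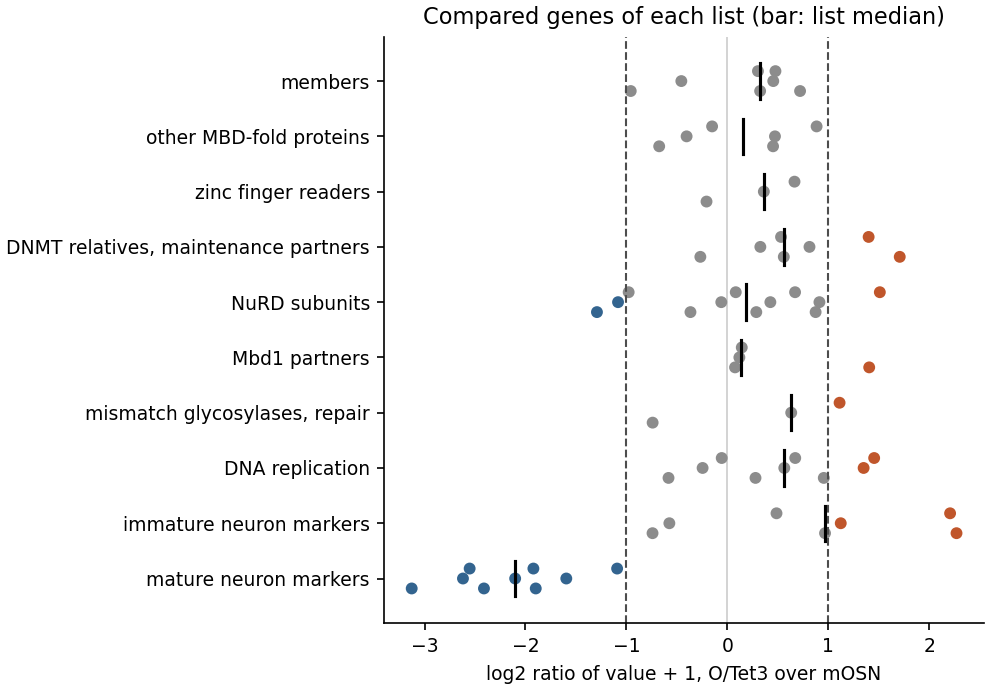
Log2 ratio of every compared gene of the members, of 6 partner lists, of DNA replication genes and of markers of immature and mature neurons, with list medians as bars and the call limits as dashed lines. All 9 mature neuron markers lie at −1.09 or lower, and the 7 compared members lie between the limits.

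Markers of cell state and cell type moved between the libraries as well, and their part in the values above was not tested. The summed value of the 9 mature neuron markers was 3104 in mOSN and 696 in O/Tet3. Of 7 immature neuron markers, 3 were called higher and 0 lower, beside 16.5% and 12.0% of all compared rows. Gap43, a growth-associated gene among the 3, was at 6.41 and 34.8, and the sum of the 7 was 97.0 and 151. The neuronal tubulin Tubb3, at 23.6 and 13.7, and the microtubule protein Dcx, at 29.0 and 19.1, had ratios below 0. Sums of other cells were lower or small: 21.4 and 5.21 for 6 sustentacular markers, 6.53 and 0.804 for 4 glia markers, 60.2 and 40.0 for 7 blood and vessel markers, 3.56 and 3.50 for 5 gland and microvillous markers, and 0.927 and 1.88 for 5 globose basal markers. The near-equal gland and microvillous sums hide calls in both directions: Pou2f3 was higher, at 0.582 and 2.90, while Cftr (1.02 in mOSN) and Ascl3 (1.58 there) had a listed 0 in O/Tet3. The 3 horizontal basal markers, the keratins Krt5 and Krt14 and the factor Trp63, summed to 0.207 in mOSN and were all listed at 0 in O/Tet3.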

How the data were processed

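RNA from sorted cells was depleted of ribosomal RNA, made into ScriptSeq libraries and amplified by PCR, per the labels' protocols. Per the submitters' processing notes, mm9, Cuffdiff, Bowtie and Bowtie2 were used, with no roles or versions given; annotation and strand setting are not given in the sources used here, so overlapping and antisense transcripts were not separated. The authors deposited 1 log2 value per gene row and library and their log2 ratio. The lowest value is 0, and raising 2 to it and subtracting 1 left at most 6 significant digits in 99.4% of mOSN and 99.3% of O/Tet3 values above 0.01. The unit had been planned as FPKM, and the same ratio follows from the deposited columns, which were matched to samples by name. Read counts and library depth are not in the table.

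Ratios, calls, ranks and list summaries were computed with Python 3.11.15 and pandas 2.3.3. Only the calling of rows was tried on simulated rows with known folds and no noise, which checks its arithmetic alone. Any compared row that is at 0 in a library passes the call limit by arithmetic alone. The alternatives were pseudocounts of 0.1 and none, a floor of 5 and none, folds of 1.5 and 3, centring, and, chosen after seeing the data, the floor of 1 applied to each library. Named are the 9 genes, Dnmt3l, the 2 highest and 2 lowest ratios per partner list, marker genes, and the 3 rows nearest to Dnmt1, Dnmt3a, Uhrf1 and Uhrf2. Some genes that this rule or the lists take in are not reported here and were left out of the list summaries. The genes and lists were chosen with earlier results of these data known.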

Additional observations from a re-analysis of the deposited data

How the results depend on the processing

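Counts moved with fold, floor and pseudocount, mostly by construction. The number of the 9 genes called lower was 1 in place of 0 with a pseudocount of 0.1, with no pseudocount, after centring and at a fold of 1.5, each time Dnmt3a; the number called higher was 1, Uhrf2, at a fold of 1.5. With a floor of 5 only 5 of the genes were compared and 3 had a ratio above 0. Over all compared rows, 3025 were called higher and 2025 lower with a pseudocount of 0.1, against 2135 and 1552 in the main setting. With no pseudocount they were 2945 and 1609 of 12277 rows. Rows called higher and lower were 1401 and 793 with a floor of 5, 4179 and 2533 at a fold of 1.5, and 745 and 673 at a fold of 3. They were 1464 and 1953 after centring, and 1301 and 646 with the floor of 1 applied to each library. Partner genes called higher were 3 with a floor of 5, 12 at a fold of 1.5 and 1 at a fold of 3; those called lower were 1, 5 and 0, 4 with no pseudocount, and 1 with the floor applied to each library. The median log2 ratio of the compared genes was between 0.12 (centred) and 0.40 (no pseudocount) under the alternatives run. Low values limit what can be read for Dnmt3b and Uhrf1. No paired analysis was possible because the groups hold a single library each.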

Other observations

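Germline relatives of the Mbd genes were near the value of a single read. Mbd3l1 was at 0.0302 in mOSN, with a listed 0 in O/Tet3, and Mbd3l2 was at 0.0544 and 0.143; both were picked after their values were seen. Zfp57, a zinc finger protein that keeps methylation at imprinted genes, was at 0.0131 and 0.734, under the floor in both libraries and also picked after its value was seen.

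The rows most like each gene were taken as those at the smallest Euclidean distance in log2(value + 1) over the 2 libraries, which is a description of 2 points. For Dnmt3a they were Brpf1 (20.3 in mOSN and 9.90 in O/Tet3), Sh3glb2 and Dazap1, at distances of 0.0140 to 0.0604, and 10 rows lay within 0.1. For Dnmt1 they were Slc25a16, Ptpn3 and Vps13b, with 49 rows within 0.1, and for Uhrf2 they were Prelid1, Ufsp2 and Fto, with 34. For Uhrf1 they were Gpr173, Efemp1 and Iglon5, with 340 rows within 0.1, as many rows have such low values.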
